A study of Homo sapiens with 16 samples.

Results

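The immune checkpoint ligands of tumor cells were followed here as 9 genes of 35993 in the count table: CD274 (PD-L1), PDCD1LG2 (PD-L2), CD276 (B7-H3), VTCN1 (B7-H4), LGALS9 (galectin-9), NECTIN2 (CD112), PVR (CD155), TNFSF9 (4-1BBL) and CD47. They were chosen by name, with earlier results of these data known, and all 9 passed the filter on low counts, which kept 21297 genes. RNA-seq had been done on RT112, J82, 253J and TCCSUP, which are 4 established human bladder cancer lines, all labelled wild type. Each line was given CM-1758, an inhibitor of histone deacetylases (HDAC), for 48 h at the IC50 of that line (the midpoint of its inhibition curve), or DMSO at 0.01% as vehicle (control). There were 2 libraries per cell line and treatment, in 8 groups and 16 libraries, so each result below describes 1 cultured line under 1 line-specific dose, without immune cells present.

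Checkpoint ligands sit on the surface of a cell, or are secreted by it, and engage receptors on T cells, natural killer cells and macrophages. PD-L1 and PD-L2 engage PD-1 and restrain T cells, and antibodies against PD-1 or PD-L1 are used to treat bladder cancer. PVR and NECTIN2 engage both the inhibitory receptor TIGIT and the activating receptor CD226, galectin-9 is a ligand of TIM-3, and CD47 engages SIRPα on macrophages and restrains phagocytosis. TNFSF9 differs from the rest, since through its receptor 4-1BB it costimulates T cells. HDAC inhibitors keep acetyl groups on histones and change transcription in both directions.

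The promoters of CD274 and TNFSF9 are shown because these showed the largest rises among the members above 3 counts in every library. The sequences are RefSeq's, on GRCh38.p14, and hold the 250 bases before the annotated start on the + strand, at chr9:5450292-5450541 for CD274 and chr19:6530776-6531025 for TNFSF9. Capitals mark matches, on either strand, to the interferon regulatory factor core GAAANNGAA, the STAT site TTCNNNGAA and the GC box GGGCGG.
CD274: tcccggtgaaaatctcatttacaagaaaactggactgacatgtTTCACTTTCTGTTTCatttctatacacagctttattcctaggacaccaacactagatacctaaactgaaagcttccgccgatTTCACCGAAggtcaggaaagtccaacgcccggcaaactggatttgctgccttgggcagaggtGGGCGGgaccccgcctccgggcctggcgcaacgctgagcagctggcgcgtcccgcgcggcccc
TNFSF9: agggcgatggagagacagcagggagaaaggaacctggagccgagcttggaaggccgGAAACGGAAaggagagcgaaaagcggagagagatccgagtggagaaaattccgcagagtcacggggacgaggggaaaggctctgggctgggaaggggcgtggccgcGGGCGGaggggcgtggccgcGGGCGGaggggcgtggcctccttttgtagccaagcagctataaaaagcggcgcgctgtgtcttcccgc
In CD274, 2 overlapping matches to the interferon regulatory factor core began at −207 and −201 from the start, a STAT match began at −125 and a GC box at −63. In TNFSF9, the interferon regulatory factor core began at −194 and GC boxes at −88 and −68. Also searched, the AP-1 site TGANTCA and the E-box CACGTG had no match in either gene. These motifs were not confined to members that rose. LGALS9 held the interferon regulatory factor core at −8, and CD276, NECTIN2 and CD47 held GC boxes. Over 35116 RefSeq windows of 300 bases, from 250 before to 50 after the start, 8.11% held the interferon regulatory factor core, 7.66% the STAT site and 45% the GC box. A RefSeq window was found for 8 of the 9 members, all but PDCD1LG2, and these matches are descriptions of letters, not of binding.

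Total counts ran from 22506431 to 32537104 per library, and replicates of a group correlated at r from 0.983 to 0.991 across genes. More genes had counts with CM-1758, 22232 to 24905 per library, than in control, 19532 to 20400. Replicates of J82 control differed most, with a chi-square per degree of freedom of 74.4 against 11.8 to 50.3 in the other groups. The keratin genes KRT8, KRT18 and KRT19 were counted in all 4 lines. The urothelial markers KRT5 and UPK1B were abundant in RT112 control (277 and 1408 CPM, a count scaled by TMM-normalized library size), and had mean control levels of 0 to 1.35 CPM in the other lines. UPK2 had 4.30 CPM and UPK3A 0 in RT112 control. GATA3 had 37.5 CPM in RT112 control and 0.374 to 6.29 in the other lines. PPARG had 204 CPM in RT112 control, 88.9 in TCCSUP, 28.4 in J82 and 6.21 in 253J. Of the epithelial markers, EPCAM ran from 0.467 (253J) to 216 CPM (RT112) in control, and CDH1 from 3.82 (J82) to 467 CPM (RT112). The summed level of 4 mesenchymal markers ran from 6.73 to 3530 CPM in control libraries. The summed level of 7 leukocyte markers ran from 4.13 to 72.7 CPM in control and from 4.61 to 38.7 CPM with CM-1758, and in TCCSUP control it was mainly CD68, CD14 and PTPRC (19.96, 11.1 and 9.58 CPM). CD68 had its highest control mean in J82, at 46.5 CPM. CD3E, a T cell marker, was at 0 in all 8 control libraries and had means of 0 to 0.138 CPM in the treated lines. CD3D, another, had a mean of 2.64 CPM in treated TCCSUP and of at most 0.102 CPM (RT112 control) elsewhere. The part of such transcripts in the results was not tested. Scaling by library size alone, in place of TMM normalization, moved the median log2 fold change of all genes up by 0.27 for 253J, 0.15 for J82, 0.15 for RT112 and 0.31 for TCCSUP, and fold changes below are relative to the TMM scale.

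CM-1758 changed most of the checkpoint ligand transcripts, but in both directions and differently in each line. Over 9 genes and 4 lines there were 36 comparisons, of which 10 were called higher, 15 were called lower and 11 were not called at an adjusted p under 0.05, using the quasi-likelihood test of edgeR with Benjamini-Hochberg adjustment over all tested genes. Here and below, "adjusted p" stands for that edgeR test, and a log2 fold change is that of CM-1758 against control. With 2 libraries per group, the p-values rest on a spread between replicates that was estimated over all 8 groups together. It is not the spread of the compared libraries alone. In bulk RNA, fewer cells with a transcript and less of it per cell cannot be told apart.

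In 253J, 2 members rose and 4 fell, where 28.8% of all tested genes rose and 22.4% fell. In J82, 3 rose and 3 fell, against 24% and 18.5% of all genes. In RT112, 3 rose and 3 fell, against 27.4% and 20.2%. In TCCSUP, 2 rose and 5 fell, against 32% and 22.1%. The median log2 fold change of the members with counts was −0.47 for 253J, −0.06 for J82, −0.42 for RT112 and −0.79 for TCCSUP, and that of all tested genes was 0.10, 0.05, 0.12 and 0.20. Control and treated libraries did not overlap for 6 members of 9 in 253J and J82 and for 7 in RT112 and TCCSUP, which is to be read beside 73%, 62.7%, 74.3% and 78.5% of all tested genes. With a log2 fold change beyond 2 and an adjusted p under 0.01, 1 member was higher in 253J and 1 in J82, with 2 in RT112 and 1 in TCCSUP, against 9.43%, 8.81%, 11.4% and 14.2% of all genes. At those thresholds 1, 2, 1 and 2 members were lower, against 3.5%, 1.24%, 1.39% and 3.31%.

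**Figure D1:**
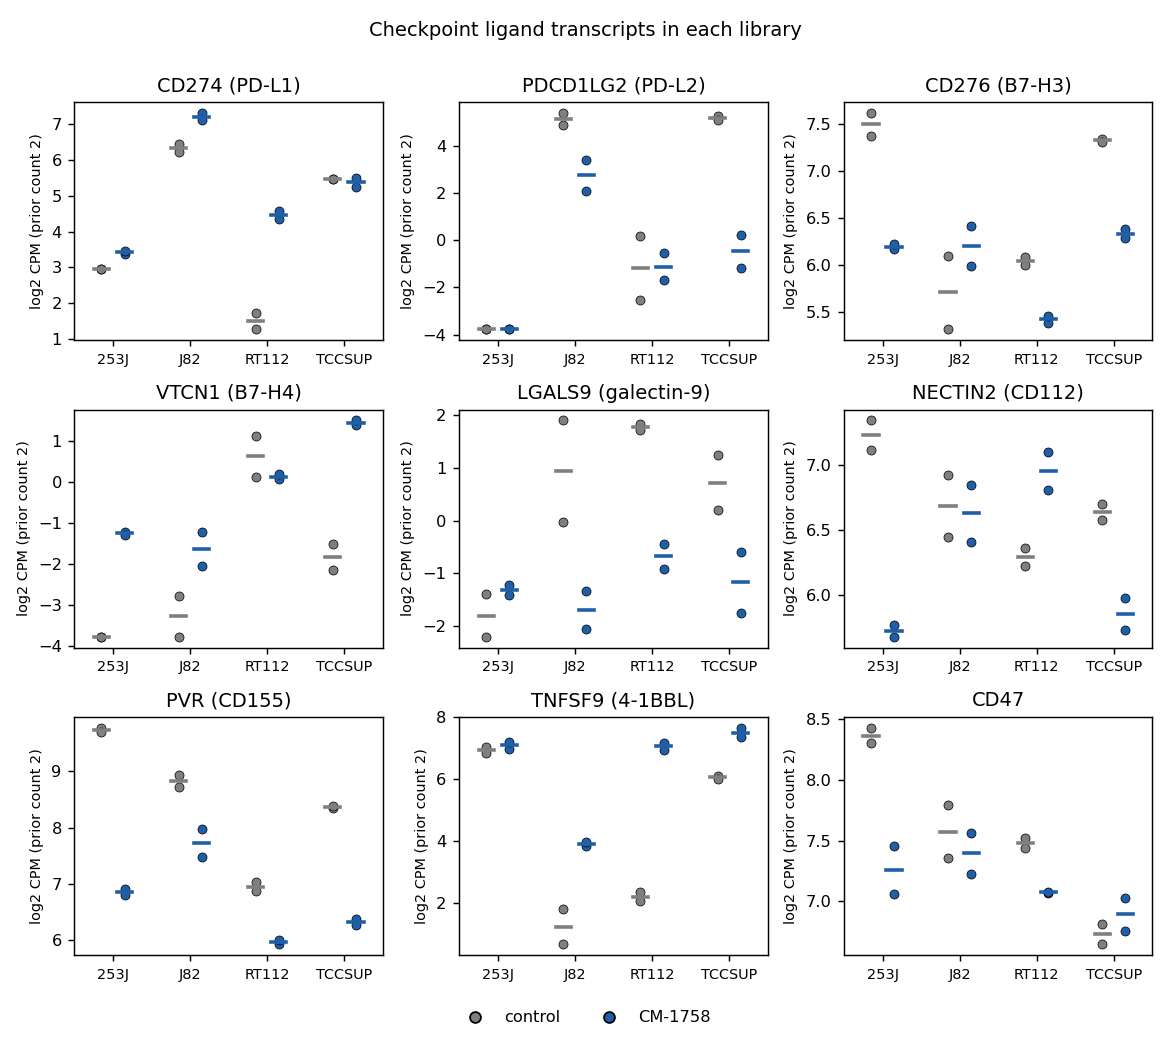
Log2 CPM (prior count of 2) of each member in each of the 16 libraries, by cell line, with control in grey and CM-1758 in blue; short bars are means of 2 libraries, and the vertical axes differ between panels and do not start at 0. PVR lay lower with CM-1758 in every line, whereas CD274 and TNFSF9 lay far higher in RT112 and overlapped in TCCSUP and in 253J, respectively.

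CD274, which encodes PD-L1, rose in 3 of the 4 lines, most of all in RT112. In RT112 its counts were 72 and 96 in control and 519 and 627 with CM-1758, or 2.80 ± 0.636 and 22.1 ± 2.55 CPM (mean ± SD, n = 2). Every treated RT112 library was above both control libraries, with a log2 fold change of 2.98 ± 0.18 (SE) and an adjusted p of 1.86e-08.

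J82, the line with the most CD274 transcript in control, had 2316 and 2039 counts in control and 4482 and 4072 with CM-1758. The groups were again apart, with a log2 fold change of 0.88 ± 0.15 and an adjusted p of 0.000297. In 253J the counts were 211 and 202 against 262 and 325, and the rise was small, at a log2 fold change of 0.47 ± 0.17 (adjusted p = 0.0283). That call in 253J was lost when any 1 of the 4 253J libraries was left out (adjusted p 0.0627 to 0.124) and when 253J was fitted alone (0.0525 in edgeR, 0.0999 in DESeq2), while library size alone gave 0.75.

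TCCSUP did not follow the other lines. Its CD274 counts were 1121 and 1155 in control and 1210 and 973 with CM-1758, which overlap, and the log2 fold change was −0.08 with a 95% interval from −0.41 to 0.24 (adjusted p = 0.676). On library size alone this value was 0.23. The response in TCCSUP was below that in RT112 by 3.06 on the log2 scale (SE 0.24, adjusted p = 3.43e-07) and below that in J82 by 0.96 (SE 0.22, adjusted p = 0.00481), and its difference from 253J was −0.56 (SE 0.23, adjusted p = 0.0828).

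PDCD1LG2, the gene of the second PD-1 ligand and on chromosome 9 like CD274, fell in the 2 lines where it was well expressed in control, TCCSUP and J82. In TCCSUP it fell from 973 and 886 counts in control to 10 and 28 with CM-1758. Both treated libraries were near the level of RT112, at 0.738 ± 0.514 CPM after 36.2 ± 3.24 CPM, a log2 fold change of −5.62 ± 0.66 (adjusted p = 1.28e-05).

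In J82, PDCD1LG2 fell from 1115 and 815 counts to 295 and 125, with a log2 fold change of −2.28 ± 0.52 (adjusted p = 0.00306). The treated J82 libraries were both below the controls, at 10.6 and 4.23 CPM against 42.4 and 29.6 CPM, and DESeq2 with all lines gave an adjusted p of 0.0763. RT112 had few counts, 3 and 31 in control and 6 and 16 with CM-1758, and no change was detectable at that depth (log2 fold change −0.42, 95% interval −2.38 to 1.54, adjusted p = 0.754). In 253J, PDCD1LG2 had no count in any of the 4 libraries, which allows at most 3 counts per library, or 0.101 to 0.119 CPM.

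Levels of both PD-1 ligands can be set side by side per kilobase of exon. On that scale, TCCSUP control held 12.02 CPM of CD274 and 15.3 CPM of PDCD1LG2, and treated TCCSUP held 11.3 and 0.312. In J82 these levels were 21.997 and 15.2 CPM per kilobase in control, and 40.5 and 3.13 with CM-1758.

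CD276, which encodes the B7-family protein B7-H3, an inhibitory ligand found on many carcinomas, fell in 3 lines. In 253J its counts were 4597 and 5147 in control and 1818 and 2210 with CM-1758, well apart, with a log2 fold change of −1.31 ± 0.20 (adjusted p = 7.58e-05). In TCCSUP they were 4115 and 4160 against 2083 and 2129, with a log2 fold change of −0.99 ± 0.20 (adjusted p = 0.000798). RT112 showed the smallest fall, from 1960 and 2011 counts to 1068 and 1156, a log2 fold change of −0.62 ± 0.20 (adjusted p = 0.0202).

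The RT112 call for CD276 was lost when any 1 of its 4 libraries was left out (adjusted p 0.0545 to 0.0978) and on library size alone (0.0882). J82 stood apart from the other 3 lines, with 1805 and 1099 counts in control and 2387 and 1880 with CM-1758. These J82 libraries did not separate by level, since the treated value of 63.6 CPM lay under the control value of 68.6 CPM, and the log2 fold change was 0.46 ± 0.20 (adjusted p = 0.0824). CD276 in J82 was called higher with RLE normalization (adjusted p = 0.0423), library size alone (0.0382), at least 10 counts in every library (0.0284) and DESeq2 over all lines (0.0320), but not with J82 fitted alone (0.221 in edgeR). Without J82 control replicate 1 the value was 0.90 (adjusted p = 0.00123), and without J82 control replicate 3 it was 0.12 (0.657). The J82 response differed from those of 253J, RT112 and TCCSUP (differences of log2 fold changes 1.77, 1.08 and 1.45 with adjusted p of 0.000283, 0.0137 and 0.00200).

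VTCN1 (B7-H4), another B7-family inhibitor of T cells, was scarce in every line. In TCCSUP it rose from 7 and 4 counts to 68 and 70, a log2 fold change of 3.60 ± 0.60 (adjusted p = 0.000193). In 253J it had 0 and 0 counts in control and 9 and 10 with CM-1758, which is at least 3.10-fold higher when control is set to the floor of 3 counts per library (adjusted p = 0.00198). In J82 it had 0 and 2 counts in control and 10 and 5 with CM-1758 (adjusted p = 0.0376), a call lost without J82 control replicate 1 (0.195) or J82 CM-1758 replicate 1 (0.182).

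RT112, the line with the most VTCN1 in control, had 64 and 30 counts there and 25 and 28 with CM-1758. These ranges met, since the lower control level of 1.02 CPM lay between the treated levels of 0.978 and 1.07 CPM, and the log2 fold change was −0.60 (95% interval −1.69 to 0.48, adjusted p = 0.348). After treatment the order changed, with 2.65 ± 0.148 CPM in TCCSUP against 1.02 ± 0.0634 CPM in RT112.

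PVR, which encodes CD155, was the member that fell in all 4 lines, as 6.01% of all tested genes did. The members that rose most widely, CD274, VTCN1 and TNFSF9, each rose in 3 lines, and 17.5% of all tested genes rose in at least 3. Among these rises, the calls of CD274 in 253J and of VTCN1 in J82 did not hold under every alternative. In 253J the counts of PVR were 24045 and 21680 in control and 3032 and 3302 with CM-1758, from 851 ± 28.5 to 116 ± 6.13 CPM. The log2 fold change there was −2.88 ± 0.17 (adjusted p = 1.74e-08).

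TCCSUP had the next largest fall of PVR, from 8241 and 8742 counts to 2227 and 1971 (log2 fold change −2.04 ± 0.16, adjusted p = 1.65e-07). J82 went from 12910 and 11542 counts to 7049 and 5266 (−1.08 ± 0.16, adjusted p = 7.73e-05). RT112, lowest of the control lines, went from 3585 and 3856 counts to 1555 and 1687 (−0.99 ± 0.16, adjusted p = 0.000155). No treated library reached a control library of its line, and all 4 calls held when each library was left out in turn.

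The falls of PVR were not of equal size. Responses of J82 and RT112 differed by 0.09 on the log2 scale (SE 0.22, adjusted p = 0.899), whereas 253J fell further than TCCSUP by 0.84 (SE 0.22, adjusted p = 0.0109) and TCCSUP further than RT112 by 1.05 (SE 0.22, adjusted p = 0.00259). The line order of PVR in control was 253J, J82, TCCSUP and RT112, each above the next with an adjusted p of at most 0.0248. With CM-1758 the mean level was highest in J82 (215 ± 52.4 CPM), and the fold between the highest and the lowest line went from 6.86 to 3.44.

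NECTIN2, which encodes CD112, shares receptors with PVR and lies on the same chromosome, 19, yet it fell in 2 lines and rose in 1. In 253J its counts went from 3835 and 4251 in control to 1374 and 1512 with CM-1758 (log2 fold change −1.52 ± 0.19, adjusted p = 9.31e-06). In TCCSUP they went from 2417 and 2720 to 1675 and 1341 (−0.79 ± 0.19, adjusted p = 0.00238), and library size alone gave −0.48 there (adjusted p = 0.0510).

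RT112 moved in the opposite direction, from 2283 and 2425 counts of NECTIN2 to 3516 and 2945. Both treated libraries were above both controls, with a log2 fold change of 0.67 ± 0.19 (adjusted p = 0.00777), though the call was lost without RT112 control replicate 1 (0.0699) or RT112 CM-1758 replicate 1 (0.0839). In J82, 3200 and 2395 control counts overlapped with 3222 and 2504 treated counts, and the log2 fold change of −0.06 had a 95% interval from −0.45 to 0.33 (adjusted p = 0.862). Its sign changed with RLE normalization (0.03) and with library size alone (0.09). NECTIN2 was 1 of the 9 members called higher in one line and lower in another, against 12.9% of all tested genes.

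Within a library the ratio of PVR to NECTIN2 does not depend on library scaling, and the summed exon lengths are 3519 and 3536 bases. In 253J there were 6.27 and 5.10 PVR counts per NECTIN2 count in control and 2.21 and 2.18 with CM-1758. The ratio was 4.03 and 4.82 in J82 control and 2.19 and 2.10 in treated J82. It was 3.41 and 3.21 in TCCSUP control and 1.33 and 1.47 in treated TCCSUP.

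RT112 began lowest, with ratios of 1.57 and 1.59, and ended under 1, at 0.442 and 0.573. So in each of the 4 lines both treated libraries had a lower ratio of PVR to NECTIN2 than both control libraries. In RT112, NECTIN2 was the more abundant of the pair after treatment, at 35.3 CPM per kilobase against 17.8 for PVR.

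**Figure D2:**
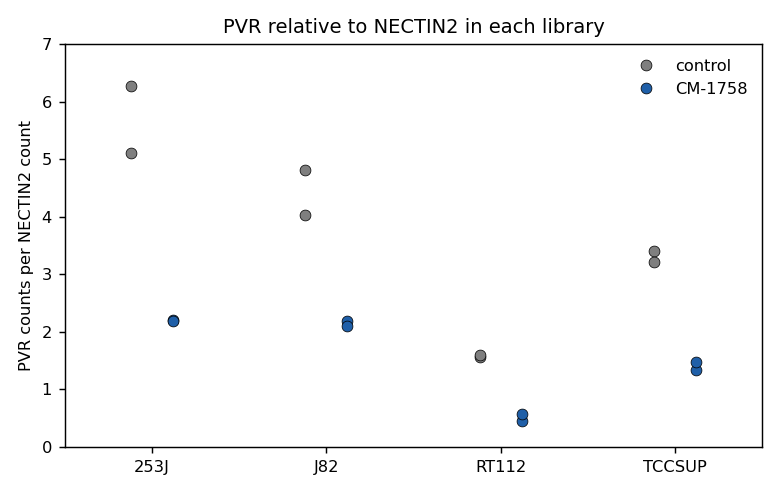
PVR counts per NECTIN2 count in each of the 16 libraries, by cell line, with control in grey and CM-1758 in blue; the axis is linear from 0. Control ratios of 1.57 to 6.27 became 0.442 to 2.21 with CM-1758, and the groups were apart in all 4 lines.

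LGALS9, which encodes galectin-9, a secreted lectin that binds TIM-3, fell in 3 lines from low levels. In RT112 its counts were 106 and 95 in control and 17 and 12 with CM-1758 (log2 fold change −2.57 ± 0.63, adjusted p = 0.00366). In J82 they were 96 and 25 against 9 and 5 (−3.19 ± 0.70, adjusted p = 0.00183), and −1.88 without J82 control replicate 1. In TCCSUP they were 27 and 60 against 6 and 15 (−2.05 ± 0.67, adjusted p = 0.0178), and the call was lost without TCCSUP control replicate 2 (0.171) or TCCSUP CM-1758 replicate 1 (0.146).

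Treated libraries of these 3 lines lay under all their controls, at 0.246 to 0.561 CPM on average. In 253J galectin-9 was hardly counted, with 4 and 8 in control and 9 and 9 with CM-1758, and the log2 fold change of 0.54 had a 95% interval from −1.25 to 2.34 (adjusted p = 0.638). LGALS9 has near-identical copies, LGALS9B and LGALS9C, so that its counts are uncertain where reads fit more than 1 copy.

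TNFSF9, the costimulatory ligand of 4-1BB, rose in 3 lines. In RT112 it went from 155 and 121 counts in control to 3710 and 3209 with CM-1758, or from 4.58 ± 0.684 to 134 ± 16.1 CPM, a 29.2-fold ratio of means. The log2 fold change was 4.86 ± 0.26 (adjusted p = 6.85e-09), the largest rise of any member above 3 counts in every library.

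In J82, TNFSF9 went from 91 and 42 counts to 402 and 462 (log2 fold change 2.60 ± 0.26, adjusted p = 2.55e-06). In TCCSUP, where it was already well expressed, it went from 1755 and 1691 to 5380 and 4153 (1.44 ± 0.22, adjusted p = 6.34e-05). In both lines all treated libraries exceeded all controls. In 253J, highest of the control lines, 3653 and 2998 control counts overlapped with 3199 and 4364 treated counts, at a log2 fold change of 0.15 with a 95% interval from −0.31 to 0.61 (adjusted p = 0.606).

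All 6 pairs of lines differed in the TNFSF9 response, with adjusted p from 1.53e-07 to 0.0234. The line order in control was 253J (124 ± 12.3 CPM), TCCSUP (67.1 ± 3.32), RT112 (4.58 ± 0.684) and J82 (2.49 ± 1.36), with every neighbour different (adjusted p of at most 0.0134). With CM-1758, 253J, RT112 and TCCSUP had 137 ± 14.5, 134 ± 16.1 and 182 ± 26.9 CPM, and J82 had 15.02 ± 0.882 CPM.

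CD47, the signal that restrains phagocytosis, fell in 1 line. In 253J its counts were 8712 and 8999 in control and 3365 and 5194 with CM-1758, with a log2 fold change of −1.10 ± 0.18 (adjusted p = 0.000126). RT112 had 5610 and 5118 control counts and 3429 and 3537 treated counts, which do not overlap, but the log2 fold change of −0.41 ± 0.18 was not called (adjusted p = 0.0741). A fit of RT112 alone called it lower, with an adjusted p of 0.00758 in edgeR and 0.00201 in DESeq2.

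In J82, CD47 overlapped at 5833 and 4499 counts in control and 5285 and 4416 with CM-1758, with a log2 fold change of −0.19 (95% interval −0.57 to 0.20, adjusted p = 0.438). In TCCSUP it overlapped at 2839 and 2606 against 3481 and 2740, at 0.17 (95% interval −0.22 to 0.55, adjusted p = 0.455), and on library size alone at 0.48 (adjusted p = 0.0429). The control range over the lines, 106 ± 8.88 CPM in TCCSUP to 330.1 ± 20.7 CPM in 253J, was 3.11-fold and became 1.42-fold with CM-1758.

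**Figure D3:**
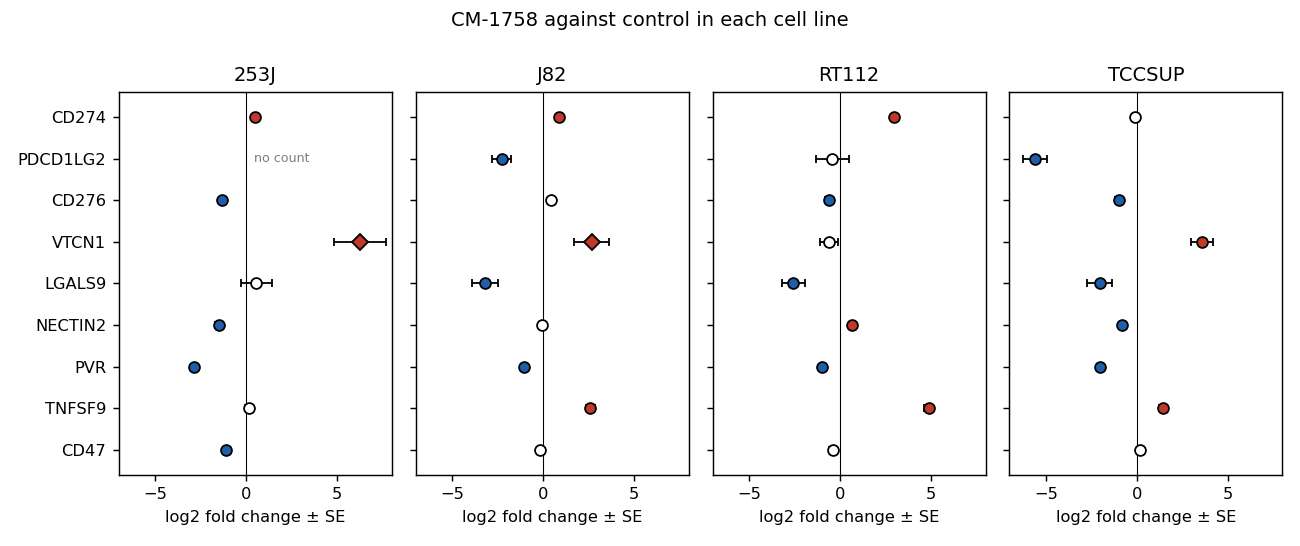
Log2 fold change of CM-1758 against control, with its standard error, for the 9 members in each cell line; red is called higher, blue lower and white not called. Diamonds mark VTCN1 in 253J and J82, where control held at most 3 counts per library and the plotted value depends on the prior count, and no value is drawn for PDCD1LG2 in 253J; PVR is blue in all 4 panels.

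The lines differed in their response for each of the 9 members by the main test, and for LGALS9 only just. The F test of edgeR for the interaction of treatment and line gave adjusted p from 3.06e-07 for TNFSF9 and 7.93e-07 for CD274 to 0.0476 for LGALS9, and 51.9% of all tested genes passed the same test. For PDCD1LG2 that test rests on the other 3 lines, since 253J had no count. For LGALS9 the call was lost with RLE normalization (adjusted p = 0.0516) and in 10 of the 16 fits that left out 1 library, any of the 253J and RT112 libraries or either treated J82 library, with adjusted p from 0.0549 to 0.164. Those 16 fits kept the call for the other 8 members.

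The control lines also differed for all 9 members, as did 78.8% of all tested genes. For CD274 the control order was J82 (81.1 ± 9.80 CPM), TCCSUP (44.3 ± 0.0950), 253J (7.69 ± 0.0685) and RT112 (2.80 ± 0.636), and each line differed from the next (adjusted p of at most 0.000246). For PDCD1LG2, TCCSUP and J82 (36.0 ± 9.001 CPM) were not told apart (difference 0.01 on the log2 scale, SE 0.48), and both were far above RT112 (0.574 ± 0.673 CPM). 253J had the highest mean control level of PVR, NECTIN2, CD276, TNFSF9 and CD47, but its CD276 did not differ from that of TCCSUP beyond the spread (adjusted p = 0.502).

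Among the lower ranks, NECTIN2 of J82, TCCSUP and RT112 differed by no more than the spread between neighbours (adjusted p = 0.862 and 0.131), as did CD276 of RT112 and J82 (0.263) and CD47 of J82 and RT112 (0.668). LGALS9 of RT112, J82 and TCCSUP was likewise not told apart between neighbours (adjusted p = 0.441 and 0.591), and 253J was below them. VTCN1 of RT112 was above that of TCCSUP (adjusted p = 0.00125), and the other lines were at or near 0.

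Of the 7 members with a level above 0 in all 8 groups, 6 had a narrower range over the lines with CM-1758 than in control, as had 56.5% of 15468 genes. The fold between the highest and the lowest line went from 28.9 to 14.0 for CD274, from 49.6 to 12.1 for TNFSF9 and from 14.8 to 2.28 for LGALS9. NECTIN2 was the exception, at 1.92 in control and 2.37 with CM-1758.

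Per kilobase of exon, PVR was the most abundant of the 9 transcripts in each of the control lines, from 35.2 CPM per kilobase in RT112 to 242 in 253J. With CM-1758, TNFSF9 had the highest level per kilobase in 253J (82.3), RT112 (80.4) and TCCSUP (110 CPM per kilobase). PVR kept the first rank in treated J82, at 61.2 CPM per kilobase, ahead of CD274 at 40.5. CD274 was sixth or seventh in control 253J, RT112 and TCCSUP.

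The wider checkpoint pathway was followed in 85 genes of 8 lists, of which 71 were tested. In 253J, 22 rose and 29 fell, in J82 17 rose and 24 fell, in RT112 31 rose and 21 fell, and in TCCSUP 11 rose and 33 fell. Of all tested genes, 28.8% rose and 22.4% fell in 253J, 24% and 18.5% in J82, 27.4% and 20.2% in RT112, and 32% and 22.1% in TCCSUP. Their median log2 fold change was −0.21, −0.07, 0.38 and −0.44, in that order, beside 0.10, 0.05, 0.12 and 0.20 for all tested genes. The receptors of lymphocytes PDCD1, CTLA4, CD28 and ICOS had too few counts to be tested in any line. Counts of each list below are to be read beside the shares of all tested genes given here. Rises from 0 counts are also to be read beside the larger number of genes with counts in treated libraries. Genes named below were kept for calls in the same direction in at least 2 lines, and 6.01% of all tested genes fell in all 4.

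Among 9 other B7-family ligands tested, 6 fell in 253J and 5 in J82, with 4 in RT112 and 5 in TCCSUP, and 1, 1, 5 and 1 rose. The butyrophilins BTN2A1 and BTN3A3, which help γδ T cells to recognise target cells, fell in all 4 lines, with log2 fold changes from −2.04 to −1.38 for BTN2A1 and from −2.53 to −0.99 for BTN3A3 (adjusted p of at most 0.0103). CD86, a ligand of CD28 and CTLA4, had 0 counts in TCCSUP control and 19 and 19 with CM-1758, at least 6.25-fold higher. CD86 also rose in RT112, from 20 and 19 counts to 51 and 67 (1.80 ± 0.50, adjusted p = 0.0119), and in 253J, from 0 and 0 to 5 and 8 (adjusted p = 0.00430).

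Among 9 other nectins, nectin-like molecules and their receptors tested, 3 rose in 253J and 3 in J82, with 5 in RT112 and 4 in TCCSUP, and 2 each fell in 253J, RT112 and TCCSUP. NECTIN4, the target of the antibody-drug conjugate enfortumab vedotin, had 5 and 8 counts in TCCSUP control and 226 and 252 with CM-1758 (5.16 ± 0.32, adjusted p = 3.48e-08). It rose from 3 and 2 to 75 and 108 counts in 253J, at least 29.6-fold, and from 0 and 0 to 36 and 54 in J82, at least 14.0-fold, while RT112 had 1022 and 1370 in control and 1268 and 1502 with CM-1758 (adjusted p = 0.0936). CADM3, an adhesion molecule, rose in TCCSUP from 36 and 51 to 488 and 357 (3.25 ± 0.51, adjusted p = 0.000148), in RT112 from 0 and 0 to 8 and 22, and in 253J from 5 and 0 to 9 and 18 (adjusted p = 0.0410). Transcripts of TIGIT, the receptor of PVR and NECTIN2, were at 0 in all 8 control libraries. In treated TCCSUP they were at 27 and 41 counts, at least 11.2-fold higher. Treated 253J held 5 and 15, and treated RT112 held 3 and 4. With 0 in control, TIGIT passed the filter on low counts only through treated libraries.

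The list of other TNF superfamily ligands and receptors also holds CD58 and CD59, which are not of that superfamily. Of its 10 tested genes, 4 rose and 5 fell in 253J, 5 rose and 2 fell in J82, 6 rose and 2 fell in RT112, and 3 rose and 5 fell in TCCSUP. CD70, the ligand of CD27, fell in 253J from 11665 and 11742 counts to 2677 and 3171 (−2.03 ± 0.32, adjusted p = 0.000102). In RT112 it rose from 0 and 3 counts to 2301 and 1446, at least 727-fold, and it rose in J82 from 28 and 8 to 334 and 189 (3.76 ± 0.46, adjusted p = 2.13e-05) and in TCCSUP from 0 and 0 to 40 and 57. CD40, a receptor of the same superfamily, had the same split, with −0.93 on the log2 scale in 253J and 1.71 in J82, 6.55 in RT112 from 5 and 0 to 224 and 201 counts, and at least 49.4-fold higher counts in TCCSUP (adjusted p of at most 0.0140). TNFSF14 (LIGHT) rose in RT112 from 0 and 0 to 19 and 15 counts, in TCCSUP from 19 and 17 to 65 and 62, and in 253J from 0 and 0 to 2 and 4 (adjusted p = 0.0366), the last at a level near the floor.

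The list of other galectins and TIM-3 ligands also holds the receptors HAVCR2 (TIM-3) and LAG3. Of its 9 tested genes, 2 fell in 253J and 4 in J82, with 2 in RT112 and 2 in TCCSUP, and 2, 1 and 2 rose in the first 3 lines. LGALS3BP, a secreted partner of galectin-3, and HMGB1, a nuclear protein that also binds TIM-3, fell in all 4 lines (log2 fold changes −1.79 to −1.41 and −2.17 to −0.97). Among 7 genes of the CD47 axis, 5 fell in 253J and 4 in J82, with 3 in RT112 and 6 in TCCSUP, and 1, 2 and 1 rose in the first 3 lines. SIRPA, the receptor of CD47, fell in all 4 lines, by 2.72 on the log2 scale in 253J, and so did B2M, the light chain of class I molecules, with log2 fold changes from −1.87 to −0.74. CALR, the phagocytosis signal calreticulin, fell in 253J (−1.67), J82 (−1.06) and TCCSUP (−1.998), and in RT112 its value was −0.28 (adjusted p = 0.178).

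Among 17 genes that govern PD-L1 transcription, 10 rose in RT112, 7 in 253J, 2 in J82 and 1 in TCCSUP, and 4, 6, 7 and 8 fell. IRF9, a subunit of the interferon-activated complex ISGF3, rose in 253J (1.02 ± 0.21) and RT112 (0.71 ± 0.21) and fell in J82 (−2.72 ± 0.21) and TCCSUP (−2.16 ± 0.21), with adjusted p of at most 0.0126. CD274 was called higher in 253J, RT112 and J82 and was not called in TCCSUP, and a link with IRF9 was not tested. NFKB1 fell in all 4 lines (−1.72 to −0.49), and IRF2 fell in 253J, J82 and TCCSUP (−1.08, −0.85 and −1.01) with a value of −0.53 in RT112 (adjusted p = 0.0979).

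Among 10 genes that act on the PD-L1 protein, 4 rose and 3 fell in 253J, 3 and 2 in J82, 2 and 4 in RT112, and 2 and 5 in TCCSUP. HIP1R, which directs PD-L1 to lysosomes, rose in all 4 lines, from 436 and 242 to 2944 and 3186 counts in J82 (3.07 ± 0.24, adjusted p = 2.47e-07). STT3A, a subunit of the enzyme that N-glycosylates PD-L1, fell in all 4 (−1.33 to −0.66, adjusted p of at most 0.00102). GSK3B, a kinase that marks PD-L1 for degradation, rose in 253J, J82 and RT112 (0.89, 1.29 and 1.21), with a value of 0.32 in TCCSUP (adjusted p = 0.0613). These are transcript levels, and no PD-L1 protein was measured in these files.

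**Figure D4:**
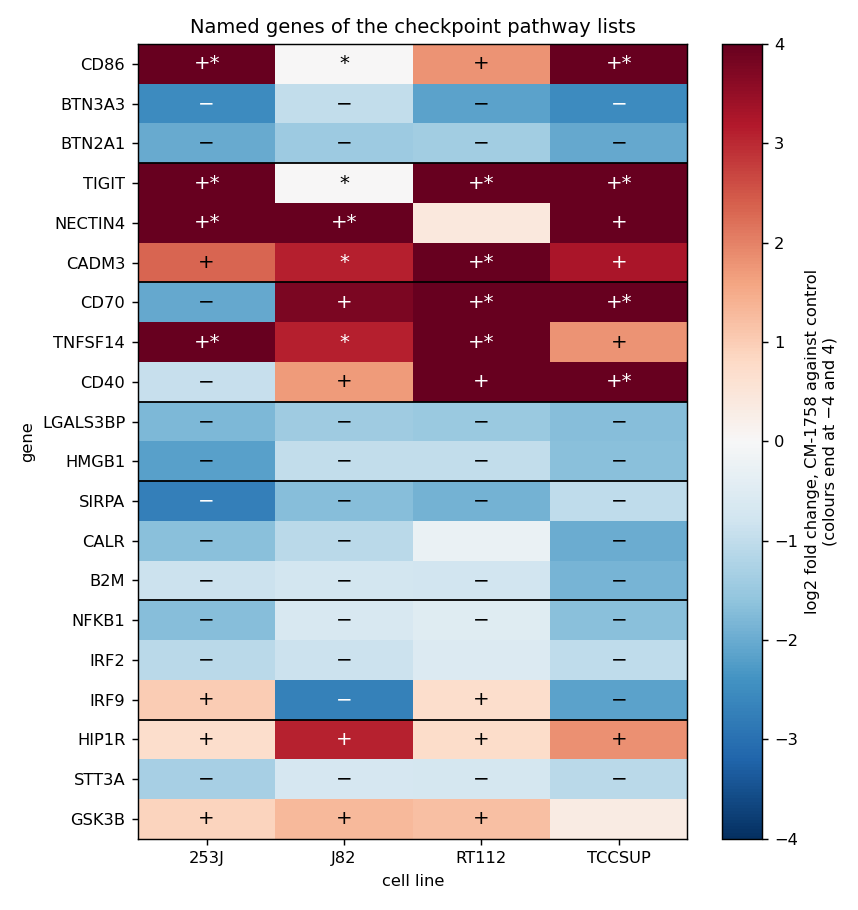
Log2 fold change of CM-1758 against control in each cell line for the 20 named pathway genes, grouped by list; + and − mark genes called higher and lower, and * marks a group with at most 3 counts per library, where the colour depends on the prior count. BTN2A1, BTN3A3, LGALS3BP, HMGB1, SIRPA, B2M, NFKB1 and STT3A were lower in all 4 lines, and HIP1R was higher in all 4.

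The 5 genes whose log2 CPM followed that of CD274 most closely over the 16 libraries were PNMA2 (Pearson r = 0.968), ASRGL1 (0.963), TUBB2A (0.959), GMPR (0.958) and DNAH11 (0.958). Libraries of a line share its level, so this likeness is mainly over 8 groups. All had their largest log2 fold change in RT112, from 1.78 for TUBB2A to 8.86 for GMPR. Their choice by likeness to CD274, which moved most in RT112, builds this in to a large part. In J82 their values ran from −0.85 for DNAH11 to 1.00 for ASRGL1. In 253J they ran from 0.47 for ASRGL1 to 4.63 for GMPR. Within the members, the closest pair by size of r was VTCN1 and PVR, at r = −0.891. CD274 and PDCD1LG2 had r = 0.724 although their responses to CM-1758 differed. VTCN1 had 0 counts in 253J control, and PDCD1LG2 in every 253J library. There the log2 CPM is set by the prior count, so both r rest in part on that floor.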

How the data were processed

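Total RNA of 4 cell lines was sequenced as stranded libraries after depletion of ribosomal RNA. The deposited values are raw counts, whole numbers of reads per gene symbol, without normalization. HISAT2, StringTie and the build GRCh37 are named in the submitters' processing notes without versions or roles, and the counting step is not given in the sources used here, so the treatment of reads that fit several genes is unknown. Columns were matched to samples by title, and 0 columns were left over.

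Genes were filtered with filterByExpr and normalized by TMM, and 1 quasi-likelihood model over 8 groups was fitted with edgeR 4.0.16 in R 4.3.3 (8 residual degrees of freedom, common biological coefficient of variation 0.153). Contrasts were adjusted by Benjamini-Hochberg over 21297 genes and called at an adjusted p under 0.05. Each standard error was obtained from the log2 fold change and its F statistic, and intervals are 95% intervals. The floor was 3 counts per library, and bounds and floors cover counting error only. Exon lengths are unions of exons in GENCODE v29. Promoter sequences are RefSeq's, on GRCh38.p14.

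All members were named, as were up to 3 genes per list called in the same direction in at least 2 lines without overlap of libraries, in order of mean log2 fold change by size, and the 5 genes most correlated with CD274. The members and lists were chosen with earlier results of these data known.

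Alternatives were RLE normalization, library size alone, no filter, at least 10 counts in every library, DESeq2 1.42.0 with all lines and with each alone, edgeR with each line alone, the replicate number as a block, a log2 fold change beyond 2 with an adjusted p under 0.01, and leaving out each library. The fit was tested on simulated counts of 21297 genes for RT112, drawn with the same spread for every gene. Of 100 genes changed 2-fold 54 were recovered, and of 100 changed 8-fold 95. Among the unchanged genes, 8 were called in RT112 and 9 for the interaction. Far more genes were called in the data, so these shares do not give the recovery there.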

Additional observations from a re-analysis of the deposited data

Results flagged for a closer look

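The response to CM-1758 differed between the 4 cell lines for each of the 9 members, by the edgeR F test of the interaction of treatment and line. The adjusted p was 7.93e-07 for CD274, 0.00672 for PDCD1LG2, 0.000642 for CD276, 0.00117 for VTCN1 and 0.0476 for LGALS9. It was 4.90e-05 for NECTIN2, 1.85e-05 for PVR, 3.06e-07 for TNFSF9 and 0.00453 for CD47. The dose was set separately for each line, so line and dose cannot be told apart. For LGALS9 the call was lost with RLE normalization (0.0516), with the replicate block (0.110) and in 10 of 16 fits that left out 1 library (up to 0.164, without 253J control replicate 2). The other 8 members stayed at or under 0.0387 under every alternative that was run for them.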

How the results depend on the processing

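Over the alternatives other than leaving out a library, 240 of 265 log2 fold changes of a member in a line kept their direction and their side of the threshold, 9 gained a call, 9 lost one and 7 reversed. With 1 library left out, where the lone library of that group is assumed to vary like the others, 117 of 140 kept both, 2 gained a call, 14 lost one and 7 reversed. No called value reversed. The values that reversed were NECTIN2 in J82 (0.0284 with RLE, 0.0852 with library size alone, 0.0501 with at least 10 counts, 0.0284 with DESeq2 over all lines, −0.28 to 0.20 with 1 library left out), CD274 in TCCSUP (0.23 with library size alone, 0.0672 with at least 10 counts, −0.22 to 0.0335 with 1 library left out), LGALS9 in 253J (−0.0127 with the replicate block) and, with 1 library left out, CD47 in J82 (−0.39 to 0.0493), VTCN1 in RT112 (−1.03 to 0.00524) and PDCD1LG2 in RT112 (−1.30 to 2.06). Requiring at least 10 counts in every library removes PDCD1LG2, VTCN1 and LGALS9 by construction, and left 1 member higher and 13 pathway genes higher in 253J, 1 member lower in J82, 1 member lower and 20 pathway genes higher in RT112, and 1 member higher, 3 lower and 7 pathway genes higher in TCCSUP. Library size alone gave 18 pathway genes higher in TCCSUP. In 253J, 1 member was higher with that line fitted alone (edgeR and DESeq2), where VTCN1 kept its call and CD274 lost it. With any 1 of the 253J libraries left out, the log2 fold change of CD274 was 0.43 to 0.51. The thresholds of a log2 fold change beyond 2 and an adjusted p under 0.01, which are stricter by construction, left 1 member higher and 1 lower in 253J, 1 higher in J82, 1 lower in RT112 and 1 higher and 2 lower in TCCSUP, with 6 pathway genes higher and 10 lower in 253J, 4 and 2 in J82, 11 and 2 in RT112, and 8 lower in TCCSUP. Same-numbered libraries deviated together with correlations of 0.05 (253J), 0.22 (J82), 0.04 (RT112) and 0.02 (TCCSUP), so the numbers were not taken as pairs. With the replicate number as a block, 0 members (CD274 at 0.0524 and VTCN1 at 0.0619, adjusted p of edgeR) and 14 pathway genes were higher in 253J, VTCN1 in J82 lost its call (0.0863), and CD276 in J82 (0.00571) and CD47 in RT112 (0.00678) gained one. Depth limits PDCD1LG2 in 253J and RT112, VTCN1 and LGALS9, whose counts were low.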
